A study of Mus musculus with 24 samples.

Results

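Brain tissue of mice that received the interleukin-1 receptor antagonist Anakinra as the only drug after traumatic brain injury (TBI) was compared with that of mice that received vehicle. The comparison held the 5 Anakinra and the 5 vehicle libraries, 10 of the 24 libraries of the series, which were chosen by the treatment in their labels. All mice were male, carried no transgene, were labelled as strain C57BL6N and aged 12 to 16 weeks, and were killed at 5 days post injury (dpi). The injury was a controlled cortical impact, in which a tip is driven onto the exposed dura through a craniotomy, and Anakinra was injected subcutaneously at 100 mg/kg body weight at 5 min, 24 h, 48 h and 72 h after it. Vehicle mice received saline and vehicle chow. The remaining libraries came from 5 mice with TBI fed PLX3397, an inhibitor of the receptor CSF1R on which microglia depend, at 290 mg/kg chow, from 5 mice given PLX3397+Anakinra, and from 4 sham mice, which had anesthesia and a skin incision without craniotomy. The drug is a protein with the sequence of the human antagonist, so it leaves no RNA of its own in these libraries, and no transcript was available to check the treatment in each mouse.

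Interleukin-1 alpha and beta are cytokines that signal through the receptor IL1R1 and its partner chain IL1RAP, which recruit MYD88 and the IRAK kinases and switch on NF-κB and stress kinases. The antagonist occupies IL1R1 without recruiting IL1RAP and so keeps the cytokines from signalling. In injured brain the cytokines come mainly from microglia and infiltrating myeloid cells, and endothelial cells and astrocytes are among the cells that respond. Wound tissue at the lesion rim also holds fibroblasts, mural cells and macrophages, which lay down and remodel collagen.

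Expression was given as TPM, a transcript level scaled by gene length and to a fixed library total, and was tested as log2(TPM + 1) in limma. The fold changes below are on this log2 scale as Anakinra minus vehicle, which understates changes of genes near 0 TPM, and adjusted p-values are Benjamini-Hochberg values over the 17267 genes whose mean reached 0.5 TPM. Each library summed to 1000000 TPM and held between 22160 and 23249 genes above 0. No read counts were used here and the depth is unknown, so precision rests on the spread between mice. In whole tissue, fewer cells of a type cannot be told apart from less RNA per cell. All vehicle mice, and no others, carry animal numbers ending in B, and what else this letter marks cannot be told apart from the treatment.

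Libraries of both groups stood apart in particular genes. Vehicle mice J17B and J20B were the 2 lowest of the 10 mice in 79 of 137 extracellular matrix genes tested and in 17 of 21 collagens, against 742 of the 17267 genes. Their summed collagen levels of 222 and 281 TPM were close to the 167 to 198 TPM of sham mice, whereas the other vehicle mice held 808, 958 and 925 TPM. The summed level of 19 genes of activated phagocytes was 17893 TPM in J17B and 24081 TPM in J20B, well above the 4032 to 4188 TPM of sham mice. Anakinra mice J05 and J22 stood above the others in genes of the pineal gland and photoreceptors. Results that rest on these mice are given with and without them, alternatives that were chosen after seeing the data. The tissue is named cortex in the labels and a block with cortex, striatum, dorsal hippocampus and thalamus in the methods. Marker genes of cortical layers summed to 435 to 526 TPM over the 10 mice and those of the striatum to 1902 to 2894 TPM, so RNA of both regions was measured.

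Promoter sequences are shown so that interferon-stimulated genes can be compared with a matrix gene and a protease. Ifit1 and Isg15 were chosen for their many matches to the motif below, and Irf7 as a gene of the same list with none and with a smaller p. Each sequence is the 250 bases before an annotated start in RefSeq, build GRCm38.p6, written 5′ to 3′ on the strand of the gene. The Irf7 start used lies inside the annotated span of the gene, chr7:141263183-141266499, so part of its window overlaps that span. Capitals in Ifit1 and Isg15, antiviral effectors, mark matches to the core of the interferon-stimulated response element, GAAANNGAA on either strand, and some matches overlap each other. Capitals in Mmp12, a macrophage elastase with 2 annotated starts, mark an AP-1 match, TGANTCA on either strand, and those in Col1a2, a chain of type I collagen, mark a CCAAT box on either strand.
Ifit1, chr19:34640639-34640888, plus strand: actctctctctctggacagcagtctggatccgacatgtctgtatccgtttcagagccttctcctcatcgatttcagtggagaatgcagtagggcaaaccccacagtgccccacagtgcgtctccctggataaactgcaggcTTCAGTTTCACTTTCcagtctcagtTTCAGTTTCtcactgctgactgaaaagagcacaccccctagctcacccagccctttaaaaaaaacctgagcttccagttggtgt
Irf7, chr7:141266425-141266674, minus strand: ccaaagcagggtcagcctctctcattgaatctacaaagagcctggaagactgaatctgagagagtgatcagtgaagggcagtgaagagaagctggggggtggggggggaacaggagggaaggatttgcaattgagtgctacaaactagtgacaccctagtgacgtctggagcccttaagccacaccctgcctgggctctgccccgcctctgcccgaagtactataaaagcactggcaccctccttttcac
Isg15, chr4:156200819-156201068, minus strand: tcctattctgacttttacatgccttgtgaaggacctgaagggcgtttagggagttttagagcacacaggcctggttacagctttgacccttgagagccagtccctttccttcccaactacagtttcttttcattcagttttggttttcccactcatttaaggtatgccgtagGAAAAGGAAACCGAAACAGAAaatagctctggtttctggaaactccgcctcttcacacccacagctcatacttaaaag
Mmp12, first start, chr9:7344147-7344396, plus strand: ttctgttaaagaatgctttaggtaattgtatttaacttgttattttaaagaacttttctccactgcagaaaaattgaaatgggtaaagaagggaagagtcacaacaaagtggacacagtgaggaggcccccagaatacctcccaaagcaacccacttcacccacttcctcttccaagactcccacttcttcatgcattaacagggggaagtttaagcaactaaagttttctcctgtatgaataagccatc
Mmp12, second start, chr9:7347124-7347373, plus strand: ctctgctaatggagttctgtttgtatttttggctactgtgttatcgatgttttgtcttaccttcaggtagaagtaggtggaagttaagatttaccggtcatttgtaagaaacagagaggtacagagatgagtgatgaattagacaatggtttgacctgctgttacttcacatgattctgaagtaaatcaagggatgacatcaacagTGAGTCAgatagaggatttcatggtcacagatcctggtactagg
Col1a2, chr6:4505368-4505617, plus strand: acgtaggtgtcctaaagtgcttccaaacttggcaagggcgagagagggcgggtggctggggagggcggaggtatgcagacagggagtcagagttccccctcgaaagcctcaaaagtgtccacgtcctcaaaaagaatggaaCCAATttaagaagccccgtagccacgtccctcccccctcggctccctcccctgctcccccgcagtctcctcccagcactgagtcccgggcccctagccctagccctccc

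Ifit1 and Isg15 held 3 matches each to the response element core, as did Ifit3, and Irf7 held 0. No other promoter of the list reached 3, and 14 of the 23 had 0. The core was present in 9 of 23 promoters of 20 type I interferon-stimulated genes (39.1%) and in 13 of 22 promoters of 19 interferon-gamma-induced genes (59.1%), against 7.13% of all 32851 promoters. AP-1 matches were present in 5 of 20 promoters of metalloproteinases and their inhibitors (25%) against 6.75% of all promoters, and CCAAT boxes in 5 of 18 collagen promoters (27.8%) against 33.8%. A match describes these letters and is no evidence that a factor was bound.

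Few single genes passed the test. At an adjusted p below 0.05, 12 genes rose with Anakinra (0.0695% of the genes tested) and 8 fell (0.0463%). Leaving out single mice moved these counts to between 0 and 52 genes higher and between 1 and 22 lower. At an unadjusted p below 0.05, 949 genes were higher (5.5%) and 1199 lower (6.94%), a balance that turned to 1215 higher and 1015 lower with median-ratio scaling. The 5 Anakinra mice did not overlap with the 5 vehicle mice in 197 genes that were higher (1.14%) and 246 that were lower (1.42%). Over all genes tested the median log2 fold change was -0.015, 44% of genes were above 0, and the median standard error was 0.077.

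**Figure D1:**
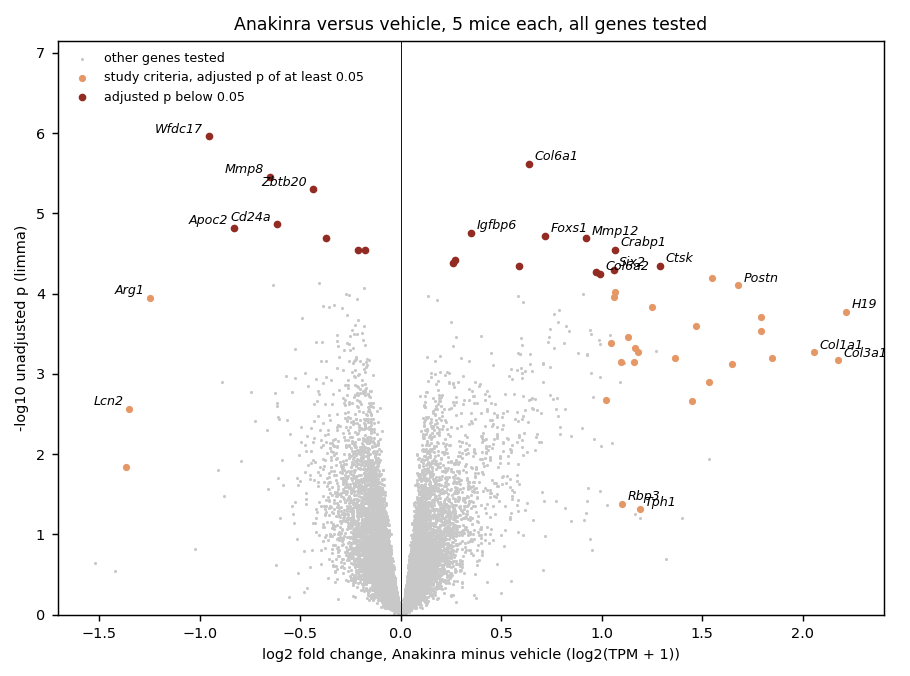
Log2 fold change of Anakinra minus vehicle (x axis) against the negative log10 of the unadjusted limma p (y axis) for all 17267 genes tested, with 5 mice in each group. Dark red points are the 20 genes at an adjusted p below 0.05 and orange points further genes that met the criteria of the study. Genes with the largest log2 fold changes, such as Col3a1 and H19, lie lower on the y axis than Wfdc17 and Col6a1, whose mice were less spread.

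The 8 genes that fell had varied known roles. Wfdc17, a secreted protease inhibitor of activated macrophages (chr11:83704056-83706269, RefSeq on GRCm38.p6), was at 105, 69.5, 92.2, 124 and 79 TPM in the vehicle mice and at 43, 43.1, 41.9, 62.1 and 46.9 TPM in the Anakinra mice. The groups did not overlap. It fell by 0.96 on the log2 scale (SE 0.15, adjusted p = 0.019), from 93.9 ± 21.4 to 47.4 ± 8.43 TPM (SD, n = 5 each), and sham mice held 1.76 TPM.

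Apoc2, an apolipoprotein that activates lipoprotein lipase, was at 37.8, 27.5, 42, 38 and 31.2 TPM with vehicle and at 20.2, 16.8, 18.6, 19.6 and 21 TPM with Anakinra. Every Anakinra mouse was below every vehicle mouse, and the gene fell by 0.83 (SE 0.15, adjusted p = 0.035). Mmp8, a collagenase of neutrophils and macrophages, was at 3.09 to 4.15 TPM with vehicle and 1.59 to 2.29 TPM with Anakinra and fell by 0.65 (SE 0.11, adjusted p = 0.02). Sham mice held 0.0437 TPM of Apoc2 and were listed at 0 for Mmp8.

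Sepp1, which encodes the selenium carrier selenoprotein P, fell from 644 ± 25.5 to 498 ± 24.8 TPM (SD, n = 5 each), a log2 change of -0.37 (SE 0.07, adjusted p = 0.035). Cd24a, a surface glycoprotein of immature neurons and leukocytes, was at 38.1 to 59.6 TPM with vehicle and 30.8 to 35.3 TPM with Anakinra and fell by 0.62 (SE 0.11, adjusted p = 0.035). The other genes that fell were Zbtb20, Fyn and Efcab14. Zbtb20, a zinc finger transcriptional repressor that acts in astrocyte and hippocampal development, had a log2 change of -0.44 (adjusted p = 0.022). Fyn, a Src family kinase of neurons and oligodendrocytes, had one of -0.21 (adjusted p = 0.038), and Efcab14, an EF-hand protein, one of -0.18 (adjusted p = 0.038). None of the 8 overlapped between the groups. Zbtb20 was at 19.6 TPM with vehicle, 14.1 TPM with Anakinra and 11.8 TPM in sham mice, and Fyn at 87.8, 75.5 and 70.1 TPM.

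Among the 12 genes that rose, 4 were in the extracellular matrix lists. Col6a1, a chain of the microfibrillar type VI collagen (chr10:76708792-76726044), was at 88.4, 56.6, 82.9, 71.7 and 62.9 TPM in vehicle mice and at 132, 104, 102, 116 and 109 TPM in Anakinra mice. The groups did not overlap, and it rose by 0.64 (SE 0.1, adjusted p = 0.02). Its partner chain Col6a2 rose from 17.2 ± 6.46 to 33.7 ± 7.24 TPM (SD, n = 5 each), a log2 change of 0.99 (SE 0.2, adjusted p = 0.049), and vehicle mice J17B and J20B were at 9.54 and 10.9 TPM.

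The other 2 were matrix-degrading enzymes. Ctsk, the collagen-cleaving cysteine protease cathepsin K, was at 11.7, 6.47, 17.4, 15.9 and 6.78 TPM with vehicle and at 41.4, 21, 20.5, 34.3 and 27.4 TPM with Anakinra. The lowest Anakinra mouse was above the highest vehicle mouse, and the log2 change was 1.29 (SE 0.26, adjusted p = 0.046). Mmp12, the macrophage elastase whose promoters are shown above, was at 4.27, 2.62, 5.61, 4.19 and 3.08 TPM with vehicle and at 10.7, 6.94, 5.73, 7.24 and 11.7 TPM with Anakinra. The nearest mice of the groups were 5.61 and 5.73 TPM, and the gene rose by 0.92 (SE 0.18, adjusted p = 0.035) while the related Mmp8 fell.

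The growth factor carriers Igfbp6 and Igfbp4, which bind insulin-like growth factors, rose by small amounts with little spread. Igfbp6 went from 44.9 ± 3.07 to 57.4 ± 4.12 TPM (log2 change 0.35, adjusted p = 0.035) and Igfbp4 from 98.5 ± 5.84 to 119 ± 6.07 TPM (0.27, adjusted p = 0.046; SD, n = 5 each). Sham mice held 68.9 TPM of Igfbp6 and 131 TPM of Igfbp4. Crabp1, a carrier of retinoic acid, was at 6.41 to 11.6 TPM with vehicle and 16.7 to 27.1 TPM with Anakinra and rose by 1.06 (SE 0.21, adjusted p = 0.038).

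The other genes that rose were Foxs1 and Six2, transcription factors of mural and mesenchymal cells (log2 changes 0.72 and 1.06, adjusted p = 0.035 and 0.048), Fkbp11, a folding enzyme of the secretory pathway (0.97, adjusted p = 0.049), Tpm2, a tropomyosin of contractile cells (0.59, adjusted p = 0.046), and the uncharacterized transcript 4933439C10Rik (0.26, adjusted p = 0.046). Of the 12 genes, 11 did not overlap between the groups, and Tpm2 did, with 12.2 TPM in vehicle mouse J18B and in Anakinra mouse J06.

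How far these calls rested on the 2 vehicle mice with little collagen differed by direction. Without J17B and J20B, none of the 12 genes that rose kept an adjusted p below 0.05, whereas all 12 kept their direction at an unadjusted p below 0.05, and 2 other genes passed. Of the 8 genes that fell, Wfdc17, Mmp8, Cd24a and Apoc2 kept an adjusted p below 0.05. The log2 change of Wfdc17 was then -1.16 (adjusted p = 0.0024), that of Apoc2 -0.99 (adjusted p = 0.015), that of Col6a1 0.47 (adjusted p = 0.077) and that of Ctsk 0.87 (adjusted p = 0.239). Of the 12 genes that rose, 9 had J17B and J20B as the lowest of the 10 mice. J17B and J20B were also the 2 lowest vehicle mice for Wfdc17, Apoc2 and Mmp8. For Cd24a, J17B was the lowest and J20B the highest vehicle mouse. Leaving out low vehicle mice makes rises smaller and falls larger, so the difference by direction is partly built in. The calls depended on other choices as well. Without Anakinra mouse J21 alone, 0 genes were higher and 1 lower at an adjusted p below 0.05, and with only the 10 compared libraries 0 and 2. Without J17B alone, 8 were higher and 22 lower.

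The study called a gene when its group means differed by more than 4 TPM and by a ratio above 2 at an unadjusted p below 0.05. By these criteria, with limma's test, 28 genes were higher (0.162%) and 3 lower (0.0174%) with Anakinra. Of the 28, 21 were in the extracellular matrix lists, and Crabp1, Ctsk and Mmp12 also passed the adjusted p. The 2 vehicle mice J17B and J20B were the lowest of the 10 in 24 of the 28, and the median log2 change was 1.27. When they were left out, 5 genes were higher and 6 lower by the criteria. Tph1 and Rbp3, genes of the pineal gland and photoreceptors, were among the 28 through Anakinra mice J05 and J22. Without these Anakinra mice 14 genes were higher and 2 lower by the criteria.

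Col1a1, the main chain of type I collagen, showed this dependence, at 169, 15.1, 206, 196 and 23.4 TPM with vehicle and at 525, 232, 246, 352 and 314 TPM with Anakinra. All 5 Anakinra mice were above all 5 vehicle mice, but J17B and J20B lay near the sham mean of 5.24 TPM and the other 3 vehicle mice near the lower Anakinra mice. The log2 change was 2.05 (SE 0.51, adjusted p = 0.097) and became 0.75 (adjusted p = 0.334) without J17B and J20B.

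Col3a1, the fibrillar collagen of early scar tissue, went from a log2 change of 2.18 (adjusted p = 0.099) to 0.71, and Col1a2, with 143 ± 107 against 361 ± 118 TPM (SD, n = 5 each), from 1.85 (adjusted p = 0.099) to 0.66. The imprinted RNA H19 was at 30, 4.61, 60.2, 60.4 and 6.14 TPM with vehicle and at 114, 97.4, 58.8, 123 and 119 TPM with Anakinra. Its groups overlapped through Anakinra mouse J14, and its log2 change of 2.22 (adjusted p = 0.067) became 1.04 without the 2 vehicle mice. Postn, encoding the matricellular periostin, had 4.19 to 19.8 TPM with vehicle and 25.4 to 47.1 TPM with Anakinra and a log2 change of 1.68 (adjusted p = 0.057) that became 0.94.

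Eln, the elastin gene, Actg2, smooth muscle gamma actin, and Lrrc15, a surface protein of activated fibroblasts, had log2 changes of 1.79 (adjusted p = 0.085), 1.79 (adjusted p = 0.074) and 1.55 (adjusted p = 0.052), which became 0.74, 1.05 and 0.88. Lrrc17, a secreted leucine-rich repeat protein (1.65, adjusted p = 0.099), and Col10a1, a network-forming collagen (1.53, adjusted p = 0.12), behaved in the same way, with 0.65 and 0.53 when the 2 mice were left out. Gm5741, a predicted gene, was the exception among the named genes of this set, with 2.52 to 6.8 TPM with vehicle, 7.81 to 11.5 TPM with Anakinra and a log2 change of 1.18 that became 1.40.

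**Figure D2:**
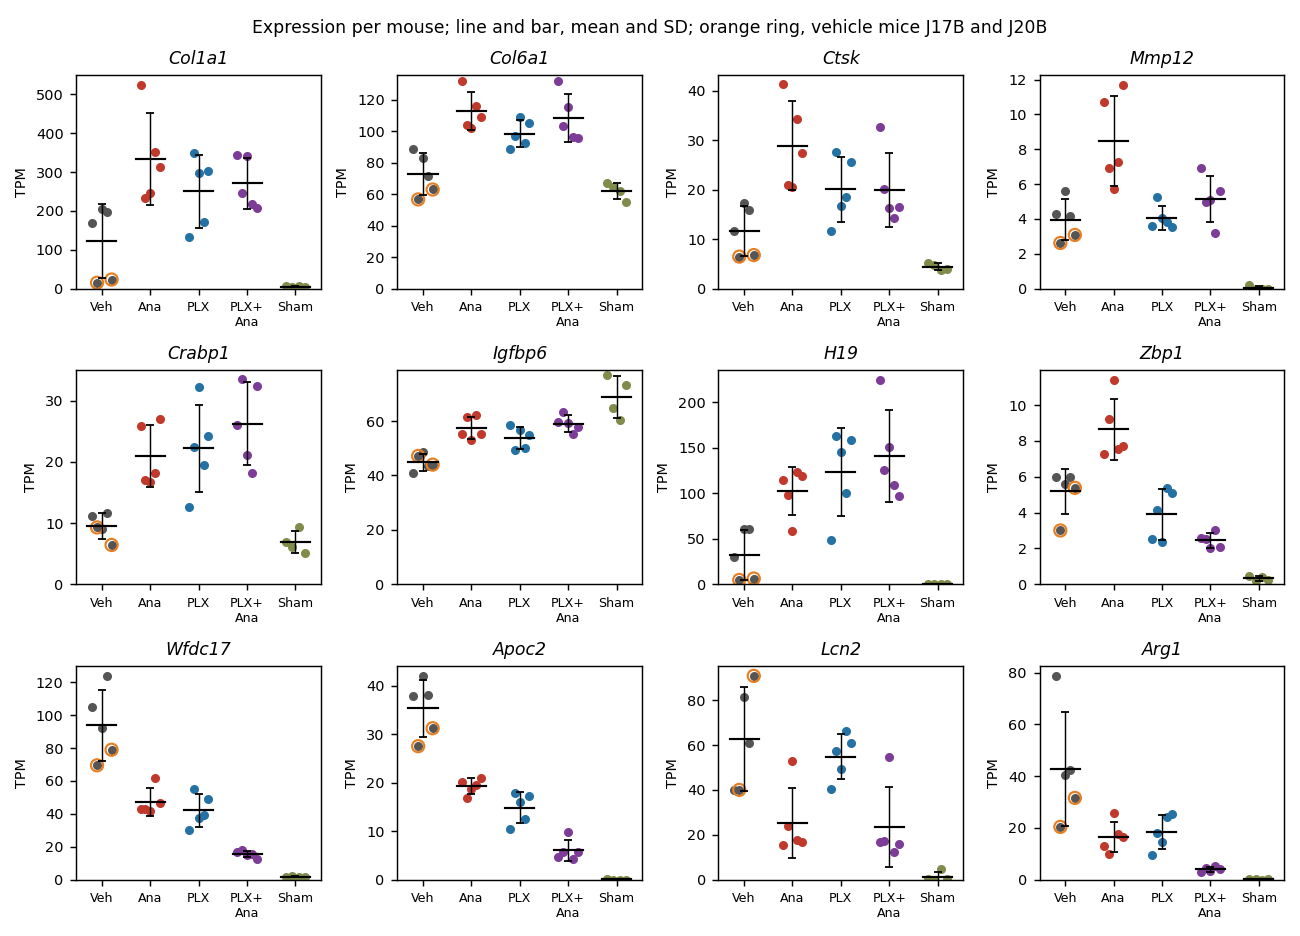
TPM of 12 genes in each of the 24 mice by group (Veh, vehicle; Ana, Anakinra; PLX, PLX3397), with the mean as a line and the SD as a bar, and orange rings around vehicle mice J17B and J20B. Col1a1, Ctsk and H19 show both ringed mice at the bottom of the vehicle group, and the ringed mice are also the lowest of the vehicle group for Wfdc17, Apoc2 and Arg1, where Anakinra mice lie lower still, apart from Arg1 in J14.

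The 3 genes lower by the same criteria were Gm33272, Lcn2 and Arg1. Arg1, the arginase of alternatively activated macrophages, was at 78.8, 20.4, 40.6, 42.4 and 31.6 TPM with vehicle and at 12.9, 10.1, 25.6, 17.7 and 16.5 TPM with Anakinra. The groups overlapped only through vehicle mouse J17B, which lay below Anakinra mouse J14. The log2 change of -1.25 (SE 0.27) had an adjusted p of 0.059 and became -1.64 (adjusted p = 0.015) without J17B and J20B. These were the 2 vehicle mice with the lowest Arg1, so the larger fall is partly built in.

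Lcn2, the iron-binding lipocalin of neutrophils and reactive astrocytes, was at 40, 40, 81.3, 61 and 90.8 TPM with vehicle and at 15.3, 23.7, 52.9, 17.9 and 16.6 TPM with Anakinra. Of the Anakinra mice, J14 alone reached the vehicle range, and the log2 change was -1.35 (SE 0.41, adjusted p = 0.149). Gm33272, a predicted transcript on chromosome Y, was at 0.872 to 9.95 TPM with vehicle and 0.135 to 2.52 TPM with Anakinra, with a log2 change of -1.37 (adjusted p = 0.266), and sham mice held 4.3 TPM.

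The collagens as a group were higher with Anakinra. Of 21 fibrillar and associated collagens, Col6a1 and Col6a2 rose at an adjusted p below 0.05, 15 were higher at an unadjusted p below 0.05 and none was lower, and 10 did not overlap. Their median log2 change was 0.95, against -0.015 over all genes, and their summed level was 808, 222, 958, 925 and 281 TPM with vehicle and 1954, 1058, 1090.4, 1469 and 1424 TPM with Anakinra. The lowest Anakinra mouse was thus above the highest vehicle mouse, J18B. With all mice, 5.5% of all genes were higher at that unadjusted p, 6.94% were lower, and 1.14% were higher without overlap. Without J17B and J20B the median was 0.47, and 11 collagens were higher at an unadjusted p below 0.05. In that setting, 687 of all 17267 genes were higher and 1033 lower.

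The other matrix lists had smaller medians than the collagens. Their counts stand beside shares over all genes of 5.5% higher and 6.94% lower at an unadjusted p below 0.05. Of 29 elastic fibre and matricellular genes, 21 were higher and 1 lower at an unadjusted p below 0.05 (median log2 change 0.49). The lower one was Thbs4, a thrombospondin of reactive astrocytes, at 31.7 to 46.1 TPM with vehicle and 19.4 to 30.5 TPM with Anakinra (log2 change -0.64, adjusted p = 0.057), with no overlap. Of 9 small leucine-rich proteoglycans, which space collagen fibrils, 6 were higher (median 0.48), among them Lum with a log2 change of 1.16 (adjusted p = 0.099) and Bgn with 1.11 (adjusted p = 0.099).

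Of 24 genes for collagen processing and crosslinking, 16 were higher and none lower (median 0.32), with the collagen chaperone Serpinh1 at a log2 change of 0.99 (adjusted p = 0.114) and the crosslinking enzyme Loxl1 at 0.88 (adjusted p = 0.097). Of 20 basement membrane genes, 8 were higher and 1 lower, with a median of 0.12. Without J17B and J20B, 11 elastic fibre and matricellular genes were higher and 3 lower at an unadjusted p below 0.05, 4 proteoglycan genes were higher, 4 processing genes were higher and 1 lower, and 0 basement membrane genes were higher and 2 lower. In that setting, 687 of all 17267 genes were higher and 1033 lower. The list medians were then 0.20 for elastic fibre and matricellular genes, 0.27 for the proteoglycans, 0.13 for processing genes and 0.01 for basement membrane genes. Each of these medians was lower than with all mice, as was that of the collagens. The 2 mice were picked for their low levels of matrix genes, so lower medians without them follow from that choice. Why they held so little matrix RNA was not tested.

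Of 20 metalloproteinases and inhibitors, 8 were higher and 1 lower at an unadjusted p below 0.05, with a median of 0.05, and without J17B and J20B 4 were higher and 2 lower. Mmp3, stromelysin, was at 0.225 to 4.69 TPM with vehicle and 4.94 to 7.58 TPM with Anakinra (log2 change 1.27, adjusted p = 0.096). Mmp2 had a log2 change of 0.94 (adjusted p = 0.085), Mmp9, a gelatinase of myeloid and endothelial cells, one of 0.90 (adjusted p = 0.059), and the inhibitor Timp1 one of 0.79 (adjusted p = 0.194). Of 14 cathepsins and cystatins, Ctsk rose, 2 were lower at an unadjusted p below 0.05, and the median was -0.02. Without J17B and J20B, 6 were lower and the median was -0.14. All genes together had shares of 5.5% higher and 6.94% lower with all mice. Without the 2 mice, 687 of all 17267 genes were higher and 1033 lower.

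Markers of the cells that make matrix were counted too. Beside them, 5.5% of all genes were higher and 6.94% lower at an unadjusted p below 0.05. Of 20 markers of meningeal and perivascular fibroblasts, 5 were higher at an unadjusted p below 0.05 and none lower (median 0.13), against 2 higher and a median of 0.04 without J17B and J20B. Of 16 markers of mural and smooth muscle cells, 8 were higher and 1 lower, against 4 higher and 2 lower without them, with a median of 0.16 in both cases. The contractile gene Acta2 was at 19.7 to 51.6 TPM with vehicle and 50.5 to 72.3 TPM with Anakinra (log2 change 0.93, adjusted p = 0.098). Rgs5, a marker of pericytes, was the lower one, at -0.14. Of 24 cell cycle genes, 5 were higher at an unadjusted p below 0.05 and 23 were above 0 (median 0.21), against 1 higher and a median of 0.06 without the 2 mice.

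**Figure D3:**
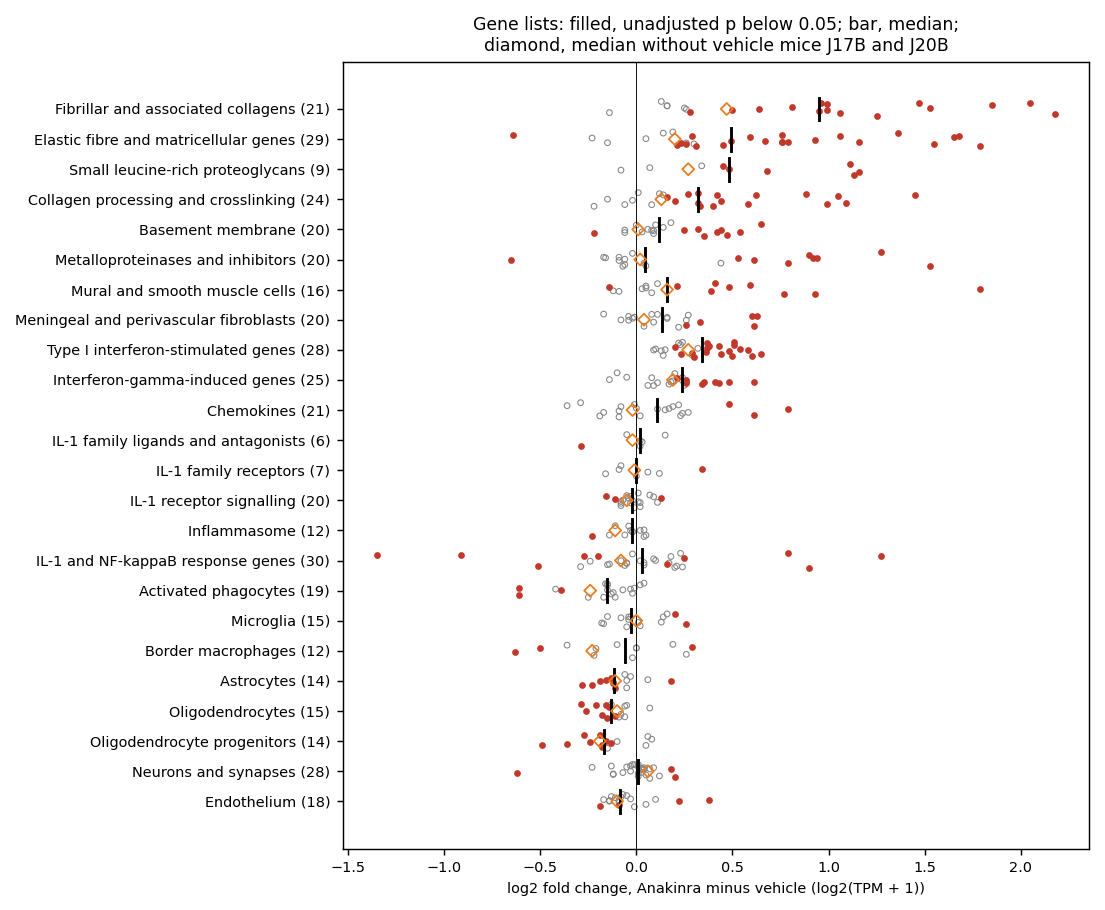
Log2 fold change of Anakinra minus vehicle for each tested gene of 24 lists, with the number of genes in parentheses. Filled points have an unadjusted p below 0.05, bars are medians, and diamonds are medians without vehicle mice J17B and J20B. The collagen median moves from 0.95 to 0.47, the type I interferon-stimulated median from 0.34 to 0.27 and the activated phagocyte median from -0.15 to -0.24.

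Genes induced by interferons, the cytokines of antiviral defence, were higher with Anakinra as a group, although none passed the adjusted p singly. All 28 type I interferon-stimulated genes tested had a log2 change above 0, 18 at an unadjusted p below 0.05, and 7 did not overlap, with a median of 0.34. Their summed level was 985, 829, 1023, 1116 and 1082 TPM with vehicle and 1317, 1236, 1490.3, 1167 and 1339 TPM with Anakinra, so the groups did not overlap, and sham mice were at 213 to 221 TPM. Without J17B and J20B, 13 of the 28 were higher at an unadjusted p below 0.05 and the median was 0.27. With all mice, 5.5% of all genes were higher at that p and 1.14% were higher without overlap.

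Zbp1, a sensor of Z-form nucleic acids that can start cell death, was at 5.99, 3, 5.6, 5.97 and 5.38 TPM with vehicle and at 7.29, 9.25, 11.4, 7.56 and 7.73 TPM with Anakinra. Its groups did not overlap, and the log2 change was 0.65 (SE 0.17, adjusted p = 0.109). Irf7, the transcription factor that amplifies type I interferon, was at 17.6 to 27.9 TPM with vehicle and 27.7 to 42.4 TPM with Anakinra (log2 change 0.58, adjusted p = 0.109), with vehicle mouse J20B just above Anakinra mouse J21.

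Ifit1, with 3 matches to the response element core in the promoter shown above, was at 20.5, 17.9, 19.6, 21.6 and 25.2 TPM with vehicle and at 28.6, 31.1, 41.3, 22.6 and 28.9 TPM with Anakinra. Anakinra mouse J14 was highest, J21 overlapped with vehicle, and the log2 change was 0.50 (adjusted p = 0.162). Isg15, a ubiquitin-like modifier, had 34.2 to 51.3 TPM with vehicle and 49.4 to 85.2 TPM with Anakinra (log2 change 0.51, adjusted p = 0.294).

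Of 25 interferon-gamma-induced genes, 9 were higher and none lower at an unadjusted p below 0.05 (median 0.24), and without J17B and J20B 5 were higher (median 0.19). Cxcl10, a chemokine for activated T cells, was at 21.1 to 32.1 TPM with vehicle and 39.2 to 51.6 TPM with Anakinra, without overlap (log2 change 0.61, SE 0.16, adjusted p = 0.11). The chemokine Cxcl13, which attracts B cells, was higher too, at 0 to 0.868 TPM with vehicle and 1.05 to 2.35 TPM with Anakinra (log2 change 0.79, adjusted p = 0.066). Over 21 chemokines tested, 3 were higher and none lower at an unadjusted p below 0.05, with a median of 0.11 that turned to -0.02 without J17B and J20B (2 higher and 1 lower).

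No gene of the pathway that the drug blocks passed the adjusted p. Of 6 ligands and antagonists of the interleukin-1 family tested, 5 did not pass an unadjusted p of 0.05. Il1a was at 1.58 ± 0.326 TPM with vehicle and 1.61 ± 0.143 TPM with Anakinra, and Il1b at 0.538 ± 0.164 and 0.716 ± 0.248 TPM (SD, n = 5 each), with log2 changes of 0.02 and 0.15 (SE 0.1 and 0.13). The endogenous antagonist Il1rn was at 3.08, 0.624, 3.81, 4.67 and 1.58 TPM with vehicle and at 3.51, 2.29, 2.88, 1.99 and 2.01 TPM with Anakinra. Its log2 change was 0.03 (SE 0.24) and became -0.46 (adjusted p = 0.367) without J17B and J20B, which held the lowest levels.

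Il33, an alarmin of oligodendrocytes and astrocytes, was the most abundant ligand, with 126 ± 5.4 against 122 ± 10.8 TPM and a log2 change of -0.05 (SE 0.08). Il18, a cytokine released by the inflammasome, had a log2 change of 0.02 (SE 0.06), and Il18bp, its soluble inhibitor, one of -0.29 (SE 0.08, adjusted p = 0.136), from 13 ± 1.41 to 10.5 ± 1.46 TPM. Il18bp was the ligand-side gene at an unadjusted p below 0.05. The other listed members, Il1f10 and the Il36 genes, were not tested.

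Among the receptors, Il1r1, the target of the drug, was at 8.08, 6.61, 10.2, 11.4 and 8.1 TPM with vehicle and at 10.5, 8.48, 8.08, 9.58 and 9.23 TPM with Anakinra. The groups overlapped through most of their range, with a log2 change of 0.06 (SE 0.13, adjusted p = 0.888), and sham mice held 4.1 TPM. The partner chain Il1rap had 17.9 ± 1.04 and 16.9 ± 1.03 TPM (log2 change -0.08), and the decoy receptor Il1r2 0.593 ± 0.084 and 0.606 ± 0.22 TPM (0.00). Il1rl2, the receptor of interleukin-36, was at 1.34 to 2.7 TPM with vehicle and 2.42 to 3.27 TPM with Anakinra (log2 change 0.34, adjusted p = 0.321), the one receptor of 7 tested with an unadjusted p below 0.05, which it did not keep without J17B and J20B. The inhibitory receptor Sigirr and the synaptic Il1rapl1 and Il1rapl2 had log2 changes of 0.12, -0.16 and -0.09. Il1rl1, Il18r1 and Il18rap were below the expression limit and were not tested. Il1rl1 was at 0.162 to 0.406 TPM with vehicle and 0.429 to 0.804 TPM with Anakinra, without overlap.

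Of 20 signalling genes from Myd88 to the NF-κB subunits, none passed the adjusted p, 1 was higher and 2 lower at an unadjusted p below 0.05, and the range of log2 changes was -0.16 to 0.13. Tab2, an adaptor that links TRAF6 to the kinase TAK1, was among the lower ones, at 48.9 to 51.4 TPM with vehicle and 43.6 to 47.8 TPM with Anakinra (log2 change -0.11, adjusted p = 0.168), without overlap. Of 12 inflammasome genes, 1 was lower at an unadjusted p below 0.05 (median -0.03, and -0.11 without J17B and J20B). The shares over all genes at that p were 5.5% higher and 6.94% lower.

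Known targets of interleukin-1 and NF-κB lay on both sides of 0 with all mice. Of 30 tested, 5 were higher and 5 lower at an unadjusted p below 0.05, with a median of 0.03 and a range from -1.35 for Lcn2 to 1.27 for Mmp3. Without J17B and J20B, 2 were higher and 7 lower, with a median of -0.08. With all mice, the lower ones were Lcn2, the acute-phase gene Saa3 (log2 change -0.91), the complement component C3 (-0.51), the astrocytic protease inhibitor Serpina3n (-0.27) and the NF-κB inhibitor Tnfaip3 (-0.20). The higher ones were Mmp3, Mmp9, Timp1, the cytokine Lif (0.25) and the nuclear regulator Nfkbiz (0.16). None of these 10 passed an adjusted p of 0.05. For all genes, the shares at an unadjusted p below 0.05 were 5.5% higher and 6.94% lower with all mice. Without J17B and J20B, 687 of all 17267 genes were higher and 1033 lower. Il6, Cxcl2, Ccl20, Csf2, Csf3 and Sele were below the expression limit and were not tested.

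Markers of macrophages and glia were counted in the same way. Over all 17267 genes, 5.5% were higher and 6.94% lower at an unadjusted p below 0.05. Without J17B and J20B, 687 of all genes were higher and 1033 lower. Of 19 genes of activated phagocytes, 17 were below 0 and 3 lower at an unadjusted p below 0.05 (median -0.15), and 9 of the 19 were lower without J17B and J20B (median -0.24). These 2 mice had the lowest vehicle means of log2(TPM + 1) over this list, 7.95 and 8.34 against 8.35 to 8.56. Larger falls without them are thus partly built in. Lyz2, lysozyme, was at 2360.3, 1248, 2402, 2494 and 1857 TPM with vehicle and at 1707, 1109, 959.7, 1391 and 1561 TPM with Anakinra (log2 change -0.61, adjusted p = 0.162). The overlap came from vehicle mouse J17B, and the log2 change without J17B and J20B was -0.88. Gpnmb, a glycoprotein of lipid-laden phagocytes, had a log2 change of -0.61 (adjusted p = 0.166), compared with -0.78 without the 2 mice. Of 12 border macrophage genes, 2 were lower and 1 higher at an unadjusted p below 0.05 (median -0.06), or 4 lower and 1 higher without J17B and J20B (median -0.23), with F13a1 at a log2 change of -0.63 (adjusted p = 0.135) and Lyve1 at 0.29. Of 12 monocyte and neutrophil genes, 1 was higher and 2 lower (median 0.05, and -0.18 without the 2 mice).

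The 15 microglial genes tested had a median of -0.03, with 2 higher at an unadjusted p below 0.05, or 0 higher and 1 lower without J17B and J20B. Of 14 astrocyte markers, 8 were lower and 1 higher at an unadjusted p below 0.05 (median -0.12), or 4 lower without J17B and J20B (median -0.11), and 4 lower with median-ratio scaling. Among the 8 were the gap junction gene Gja1, at 333 to 415 TPM with vehicle and 283 to 322 TPM with Anakinra (log2 change -0.23, adjusted p = 0.099), and the water channel gene Aqp4 (log2 change -0.28, adjusted p = 0.231), neither with overlap.

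Genes of the oligodendrocyte lineage were also mostly below their vehicle level, without passing the adjusted p. Of 15 oligodendrocyte markers, 8 were lower and none higher at an unadjusted p below 0.05 (median -0.13), and of 14 progenitor markers 9 were lower and none higher (median -0.17). When J17B and J20B were left out, 6 and 8 were lower. Olig1, a transcription factor of the lineage, was at 275 to 301 TPM with vehicle and 232 to 264 TPM with Anakinra, without overlap (log2 change -0.18, adjusted p = 0.081). Enpp6 and Gpr17, both markers of newly forming oligodendrocytes, had log2 changes of -0.49 and -0.36. Of the 14 progenitor markers, 11 were below 0 and 3 above, and 0 were above without J17B and J20B. Among those above 0 with all mice were Pdgfra at 0.05 and Cspg4 at 0.08, and Cspg4 is also in the list of mural cells. The 28 genes of neurons and synapses had a median of 0.01. Of 20 lymphocyte genes, 17 were below the expression limit. The 3 tested had a median of -0.08, with 1 lower at an unadjusted p below 0.05. The list summed to 19.7 to 24.6 TPM with vehicle and 20.9 to 24.7 TPM with Anakinra.

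**Figure D4:**
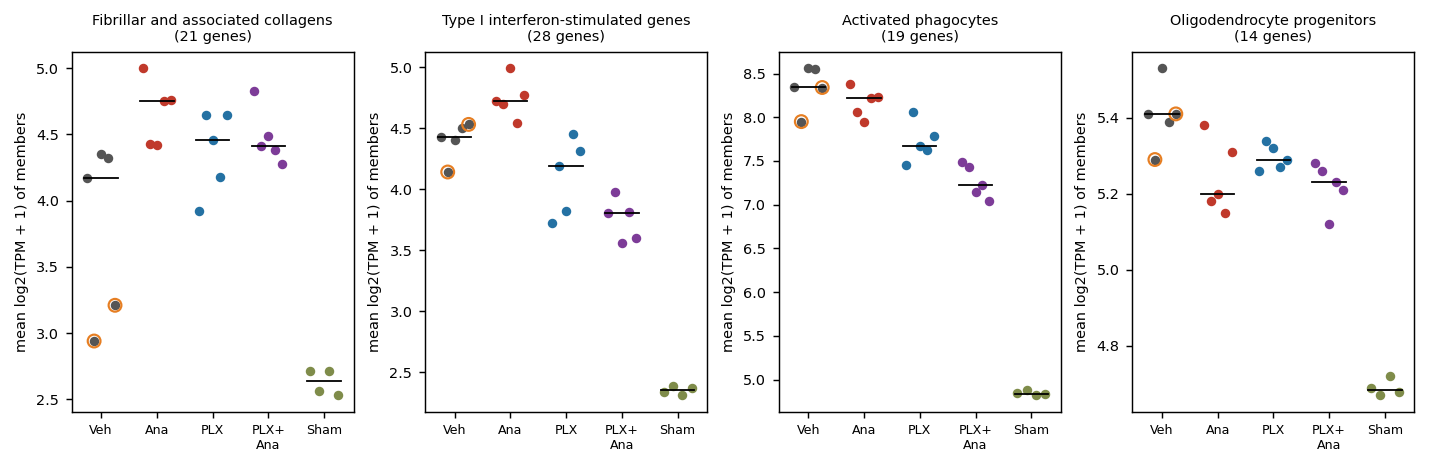
Mean log2(TPM + 1) over the members of 4 lists in each of the 24 mice by group (Veh, vehicle; Ana, Anakinra; PLX, PLX3397), with the group median as a line and orange rings around vehicle mice J17B and J20B. The ringed mice lie near sham at 2.94 and 3.21 in the collagens, where the other vehicle mice reach 4.17 to 4.35, and far above the sham level of the activated phagocytes.

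A second pair of groups, which shares no mouse with the first, allowed the same drug to be followed in mice fed PLX3397. Between PLX3397+Anakinra and PLX3397, 507 genes were higher (2.94%) and 652 lower (3.78%) at an unadjusted p below 0.05. All 8 genes that fell with Anakinra alone were also below 0 there, Fyn only at -0.00, and Wfdc17, Mmp8, Apoc2 and Sepp1 had an unadjusted p below 0.05. Wfdc17 was at 42.2 TPM with PLX3397 and 15.6 TPM with PLX3397+Anakinra, a log2 change of -1.36 (SE 0.15, adjusted p = 2.2e-05), and Mmp8 fell by 1.02 (adjusted p = 2.2e-05). Apoc2 fell by 1.19 (adjusted p = 0.0002) and Arg1 by 1.89 (SE 0.27, adjusted p = 0.00077), from 18.4 to 4.03 TPM. Lcn2 had log2 changes of -1.35 without and -1.39 with PLX3397, the latter at an adjusted p of 0.244.

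The genes that rose with Anakinra alone had a smaller median change in mice fed PLX3397. They were called by their change without PLX3397, so a smaller change in other mice is partly built in by that selection. Of the 12, 9 had a change above 0 and Igfbp4 alone had an unadjusted p below 0.05, with a median of 0.14 against 0.82 without PLX3397. Of the 28 genes higher by the criteria of the study, 20 were above 0 and Gm5741 had an unadjusted p below 0.05, with a median of 0.10. Col1a1 was at 250.1 TPM with PLX3397 and 271 TPM with PLX3397+Anakinra, a log2 change of 0.18 (SE 0.51), and the collagen list had a median of 0.10 with none of its genes at an unadjusted p below 0.05. The PLX3397 mice held 662 to 1413 TPM of collagen RNA in sum and so reached above the vehicle mice.

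The difference between the 2 effects was tested as an interaction. No gene passed an adjusted p of 0.05 (0%, with a smallest adjusted p of 0.153), and 1395 genes had an unadjusted p below 0.05 (8.08%). The interaction holds the contrast by which the genes were called, so the counts that follow are a description. The genes at an unadjusted p below 0.05 included 11 of the 12 that rose, 25 of the 28 higher by the criteria of the study, 6 of the 8 that fell, and 12 of 21 collagens. For Col1a1 the interaction was -1.88 (adjusted p = 0.549) and for Wfdc17 -0.40 (adjusted p = 0.635).

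Interferon-stimulated genes had opposite signs in the 2 pairs of groups. All 28 type I genes were below 0 for PLX3397+Anakinra minus PLX3397, 16 at an unadjusted p below 0.05 (median -0.30), whereas all 28 were above 0 without PLX3397 (median 0.34). The interaction was negative at an unadjusted p below 0.05 for 26 of the 28 and did not pass the adjusted p for any. Summed levels were 639.7 to 1039 TPM with PLX3397 and 594 to 865 TPM with PLX3397+Anakinra, and so overlapped. Zbp1 was at 3.89 TPM with PLX3397 and 2.45 TPM with PLX3397+Anakinra, and Ifit1 at 23.6 and 15.2 TPM. The interferon-gamma-induced genes had a median of 0.24 without and -0.29 with PLX3397.

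**Figure D5:**
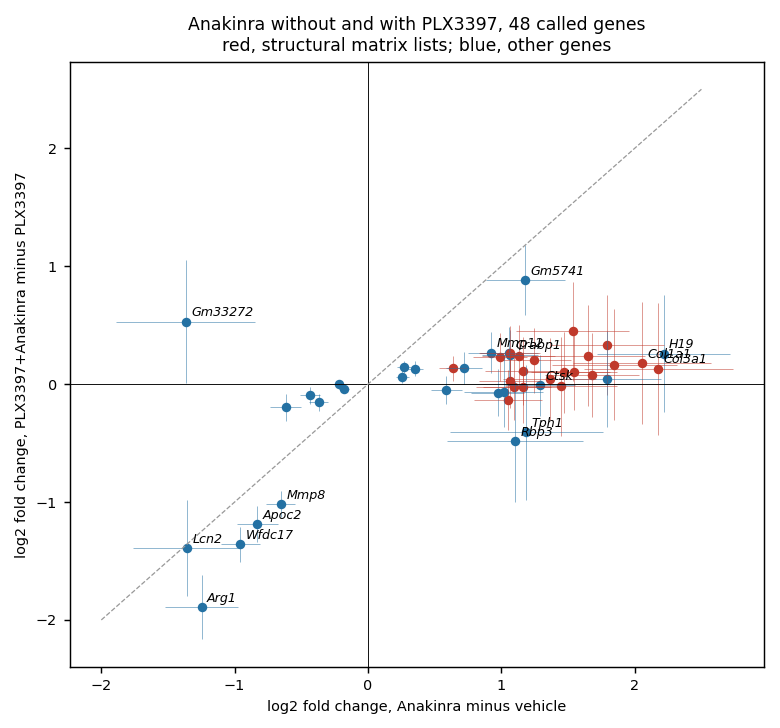
Log2 fold change of Anakinra minus vehicle (x axis) against that of PLX3397+Anakinra minus PLX3397 (y axis) for the genes at an adjusted p below 0.05 or meeting the criteria of the study in the first comparison, with standard errors as bars, equality as a dashed line, genes of the collagen, elastic fibre, proteoglycan, processing and basement membrane lists in red and others in blue. Wfdc17, Apoc2, Mmp8, Arg1 and Lcn2 lie near the dashed line or beyond it, whereas the genes in red spread along the x axis near 0 on the y axis.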

How the data were processed

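RNA of lesional and perilesional tissue was enriched for polyA tails and sequenced in paired-end mode, with 1 library per mouse. The authors trimmed and mapped reads in CLC Genomics Workbench and deposited TPM per gene, annotated to GRCm38 per the submitters' processing notes. The labels give strain C57BL6N, the methods C57BL/6JRj. Of 3 deposited tables, the full one with 36333 genes was used. Another holds the same values to within 0.000761 TPM, and a filtered one with 20181 genes also carries p-values of the authors' own tests, which were not used. TPM keep no depth, so no counting interval was given.

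Genes whose mean reached 0.5 TPM across the 24 libraries entered one limma fit (version 3.58.1, R 4.3.3) of log2(TPM + 1), with a mean per group and a variance trend. Contrasts were Anakinra minus vehicle, PLX3397+Anakinra minus PLX3397 and their difference. P-values were adjusted by Benjamini-Hochberg over all genes. The procedure was tested on simulated data.

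Genes were named by rule: all at adjusted p below 0.05, up to 10 in each direction by fold change among those meeting the criteria of the study, 5 in each direction by p among those with at least 20 TPM, interleukin-1 ligands and receptors, and members of lists described. The comparison, rule and lists were chosen with earlier results of these data known. Lists are described by counts and medians without a test. The extracellular matrix lists comprise collagens, elastic fibre and matricellular genes, proteoglycans, processing, basement membrane, metalloproteinase and cathepsin genes. Alternatives were another pseudocount, filter, scaling, variance model or weighting, the compared libraries alone, other calling criteria and leaving out mice. Promoters came from RefSeq tables of GRCm38.p6. One gene is not reported here.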

Additional observations from a re-analysis of the deposited data

Results flagged for a closer look

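Of 117 groups of 5 mice examined for the genes named, 6 held a mouse whose log2(TPM + 1) lay far from the other 4 for the range of its group (groups below 1 TPM were left out), and chance flags about 1 in 20 groups. Wfdc17 was at 62.1 TPM in Anakinra mouse J21, above the 41.9 to 46.9 TPM of the other Anakinra mice and below every vehicle mouse. Foxs1 was at 0.722 TPM in vehicle mouse J17B against 1.48 to 1.75 TPM in the others. Igfbp4 was at 108 TPM in Anakinra mouse J22, the lowest of its group. Actg2 reached 13.1 TPM in Anakinra mouse J05, and Mfap4, a microfibril gene, was lowest of the Anakinra mice at 15.4 TPM in J14. Gm5741 was at 6.8 TPM in vehicle mouse J20B, more than the 2.52 to 3.31 TPM of the other vehicle mice. No gene passed an adjusted p of 0.05 in the test of the difference between the effects of Anakinra with and without PLX3397.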

How the results depend on the processing

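Counts of genes at an adjusted p below 0.05 depended on the processing more than their directions did. The 12 genes higher became 133 with library weights, 5 with median-ratio scaling, 1 with no filter, with no variance trend or with a pseudocount of 0.1, and 0 with only the 10 libraries compared. The 8 genes lower became 164, 6, 4, 4, 2 and 2 in the corresponding settings (weights, scaling, no filter, no trend, pseudocount, 10 libraries). Of the 24 libraries, J20B had the largest weight (2.01) and J17B the smallest (0.467), the 2 vehicle mice with little collagen. Without vehicle mice J17B and J20B the counts were 2 higher and 13 lower, and without Anakinra mice J05 and J22 they were 0 and 2. Leaving out single mice gave 0 to 52 genes higher and 1 to 22 lower. The higher count moved by over 1.5 times with every mouse but J17B, most with J18B (50) and J19B (52), and the lower count with J06 (2), J14 (3), J21 (1), J17B (22), J19B (14) and J20B (2).

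By the criteria of the study, the 28 genes higher became 14 without J05 and J22, 5 without J17B and J20B, 58 with a difference above 1 TPM and 3 with an adjusted p, and the 3 lower became 6, 6 and 0 in the last 3 settings. Single mice moved them to 14 to 41 (14 without J17B) and 2 to 5 (5 without J21 or J20B). The counts at an unadjusted p stayed within 1.5 times of 949 and 1199 in every setting run, but their balance turned with median-ratio scaling, to 1215 higher and 1015 lower. The interaction gave 0 genes in limma, or up to 9 when PLX3397 mouse J01 was left out, beside 1395 at an unadjusted p below 0.05.

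Signs turned for genes near 0. Il1a was at -0.01 with library weights, Il1r2 at -0.03 with a pseudocount of 0.1, Il1r1 at -0.01 and -0.09, Il1rn at -0.02 and -0.46 and Nlrp1b at -0.04 and -0.04 without J05 and J22 and without J17B and J20B. Leaving out single mice gave ranges of -0.04 to 0.08 for Il1a, -0.05 to 0.07 for Il1r2, -0.03 to 0.15 for Il1r1, -0.24 to 0.21 for Il1rn, 0.00 to 0.10 for Nlrp1b and -0.02 to 0.05 for Il18. Without J05 and J22, Tph1 went to -0.13, Rbp3 to -0.08, Crx to -0.06 and Gnb3 to -0.14. The cause of these shifts was not tested. No paired analysis was possible because vehicle and Anakinra mice share no animal number. The depth of the libraries is unknown, and with 5 mice a group small changes of variable genes cannot be seen.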

Other observations

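The genes below were chosen after their values were seen and carry no claim of a test. Genes of motile cilia, the beating cilia of ependymal cells that line the ventricles, were lower with Anakinra. Of 30 tested, 29 were below 0, 16 were lower at an unadjusted p below 0.05 and none higher, and 8 did not overlap. Over all genes, 6.94% were lower at that p and 1.42% were lower without overlap. The median log2 change of the cilia genes was -0.24, and -0.26 without vehicle mice J17B and J20B. The median was -0.02 for PLX3397+Anakinra minus PLX3397.

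Genes of the pineal gland and photoreceptors, which produce melatonin or sense light, stood out in single mice. Tph1, the first enzyme of serotonin synthesis in the pineal gland, was at 24.6 TPM in Anakinra mouse J05 and 4.13 TPM in J22 and at most 0.46 TPM in the other mice of the comparison. Rbp3, a retinoid carrier of photoreceptors, was at 17.9 and 2.59 TPM in the same mice. The summed level of 15 such genes was 206 TPM in J05 and 47.4 TPM in J22, against 19.6 to 31.7 TPM in the other 8 mice, and PLX3397 mouse J20 was at 39.7 TPM. Of the 10 genes tested, the median log2 change was 0.92 and became -0.10 without J05 and J22. Tph1 and Rbp3 met the criteria of the study with all mice, at adjusted p-values of 0.397 and 0.378.

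Rn7s1 and Rn7s2, copies of the signal recognition particle RNA, which lacks a polyA tail of its own, were at 130.3 to 251 and 147 to 258 TPM with vehicle and at 257 to 415 and 283 to 435 TPM with Anakinra, without overlap. Their log2 changes were 0.74 (adjusted p = 0.104) and 0.71 (adjusted p = 0.099), sham mice held 362 and 352 TPM, and reads of the 2 near-identical copies cannot be told apart. Aldh1a3, an enzyme that makes retinoic acid, had a log2 change of 0.82 without overlap, beside that of the retinoic acid carrier Crabp1.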
